A study of Rattus norvegicus with 77 samples.

Results

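The Bcl-2 family sets the point at which a cell starts mitochondrial apoptosis. Its survival members Bcl2, Bcl2l1 (Bcl-xL), Bcl2l2 (Bcl-w) and Mcl1 hold back the effectors Bax, Bak1 and Bok, which open the outer mitochondrial membrane and let out cytochrome c, while the BH3-only members Bad and Bid relay death or growth factor signals to both sides. In the testis the balance of these proteins decides how many germ cells survive each wave of spermatogenesis, and male mice without Bcl-w or without Bax are infertile. Bcl2l14 encodes Bcl-G, a member whose part in cell death is less settled than that of the others.

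The transcripts of 10 family members were looked up on arrays of sperm RNA: Bcl2, Bcl2l1, Bcl2l2, Mcl1, Bax, Bak1, Bok, Bad, Bid and Bcl2l14. Each was taken from the probe set (the group of probes that reads 1 transcript) with the highest mean over all arrays among those whose only platform symbol is that gene, and 9 of the 10 had one, of 14506 genes with such a probe set. The only probe set of Bcl2l2 also carries the symbol Pabpn1, so no value is given for Bcl2l2. No filter on low signal was applied. The rule itself uses no difference between groups, but the family was chosen with earlier results of these data known, Bcl2l14 included.

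Sperm were washed from the cauda epididymides of adult male Fischer 344 rats, treated with a buffer that lyses somatic cells, and their RNA was hybridized to Affymetrix rat whole-transcript arrays, with 1 array per rat and 77 arrays in all. The HD group (n = 19) drank 0.33% 2,5-hexanedione, a toxicant of Sertoli cell microtubules, for 3 months and was killed at the end of exposure, as was the water group (n = 20), which drank water only. The HD-recovery group (n = 20) drank the same HD solution for 3 months and then water for 3 more months, and the water-recovery group (n = 18) drank water throughout and was killed at that later time. Age, kill time and any processing batch of the later kill cannot be told apart.

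Every value is a log2 signal, so that a difference of 1 is a doubling. The 14 sperm and spermatid markers had a mean log2 signal of at least 9.27 on every array, well above the array medians of 6.51 to 6.78. Arrays of 1 group differed, with median correlations to the rest of the group of 0.93 to 0.98, and 0.83 in HD replicate 5 alone. Those that fell furthest below their group (more than 3 scaled median absolute deviations) are called outlying below. They were HD replicates 3, 4, 5 and 14, water replicate 20, HD-recovery replicates 2, 9 and 16, and water-recovery replicates 12 and 15. All 77 arrays were kept, and the main values are also given without these 10.

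Bcl2l14 was the member that was altered after HD exposure, and Bcl2 was the member that followed it most closely from array to array. Genes outside the family, such as Klhl10 (r = 0.97), followed Bcl2l14 more closely than Bcl2 did, and shared regulation was not tested. The promoters of these 2 members are shown here. They cover the bases just before the annotated start in RefSeq (rat build GRCr8, matched by symbol), at chr4:168948730-168948979 on the plus strand for Bcl2l14 and chr13:23366901-23367150 on the minus strand for Bcl2. Capitals mark matches to CCAAT (the CCAAT box), TATAAA (the TATA box), GGGCGG (the GC box) or TGACGTCA (the cyclic AMP response element, bound by CREM in spermatids), each searched on both strands.
Bcl2l14: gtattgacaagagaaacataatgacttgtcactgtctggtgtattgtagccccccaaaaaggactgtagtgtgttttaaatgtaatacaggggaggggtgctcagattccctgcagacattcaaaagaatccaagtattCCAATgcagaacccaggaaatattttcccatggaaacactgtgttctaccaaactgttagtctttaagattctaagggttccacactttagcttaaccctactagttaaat
Bcl2: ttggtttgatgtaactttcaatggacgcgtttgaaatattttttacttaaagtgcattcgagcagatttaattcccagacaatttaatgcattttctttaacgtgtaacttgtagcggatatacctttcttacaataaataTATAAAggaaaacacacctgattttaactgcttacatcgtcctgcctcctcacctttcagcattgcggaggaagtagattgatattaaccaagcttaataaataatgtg
The window before Bcl2l14 held 1 CCAAT, which 34.0% of 33469 rat promoter windows of this length held, and that before Bcl2 held 1 TATAAA, which 12.9% held. Neither held a GGGCGG (30.5% of windows) or a TGACGTCA (1.6% of windows), and neither shared a match with the other. Both were poor in G and C, at 39.6% for Bcl2l14 and 33.6% for Bcl2, against a median of 51.2% over all windows. Of the other members with a window, Mcl1, Bak1 and Bcl2l2 held 1 GGGCGG and Bid held 3, and 2 of the 4 windows of Bcl2l1 held 1 CCAAT. A match describes these letters and is not a measured site.

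After HD exposure Bcl2l14 (probe set 10859237) was lower. Its log2 signal ran from 8.36 through a median of 9.60 to 11.14 over the 19 arrays labelled HD, against 9.18, 10.66 and 11.30 over the 20 arrays labelled water. The ranges overlapped, but 18 of the 19 HD arrays fell under the water median and 6 under the lowest water array. Its mean was 9.60 ± 0.75 in HD sperm and 10.56 ± 0.58 in water sperm (SD, n = 19 and 20), a log2 fold change of −0.95 (SE 0.20, 95% interval −1.37 to −0.54), or 1.94-fold lower, with p = 3.09e-05 and q = 0.0180 by limma over all 29214 probe sets. A negative sign means lower in arrays labelled HD, and for Bcl2l14 this direction is opposite to that given by the study, which also lists this transcript from the same arrays. The same holds for the other genes named here that the study lists (Pim1, Bfar, Bag1, Mfap3l, Dnajb4, Dcn, Lyz2, Fcer1g, Cd4, Ccr2 and Cx3cr1). In the study's quantitative PCR of other rats, Bcl2l14 was higher after HD exposure than before it, though not significantly. That separate measure therefore did not show Bcl2l14 lower either. Whether the labels HD and water or the study's ratio are turned round is not settled, so HD and water sperm are named by their labels throughout, and every sign of HD minus water would turn if the labels were turned. At q under 0.05, the threshold for calling a probe set altered, Bcl2l14 was the 1 member of 9 that passed, against 0.472% of all probe sets (0.455% lower and 0.0171% higher). The study had picked Bcl2l14 from these same arrays, and the family was chosen with that known. Its passing is therefore no independent support, and the count is not read as a trait of the family.

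**Figure D1:**
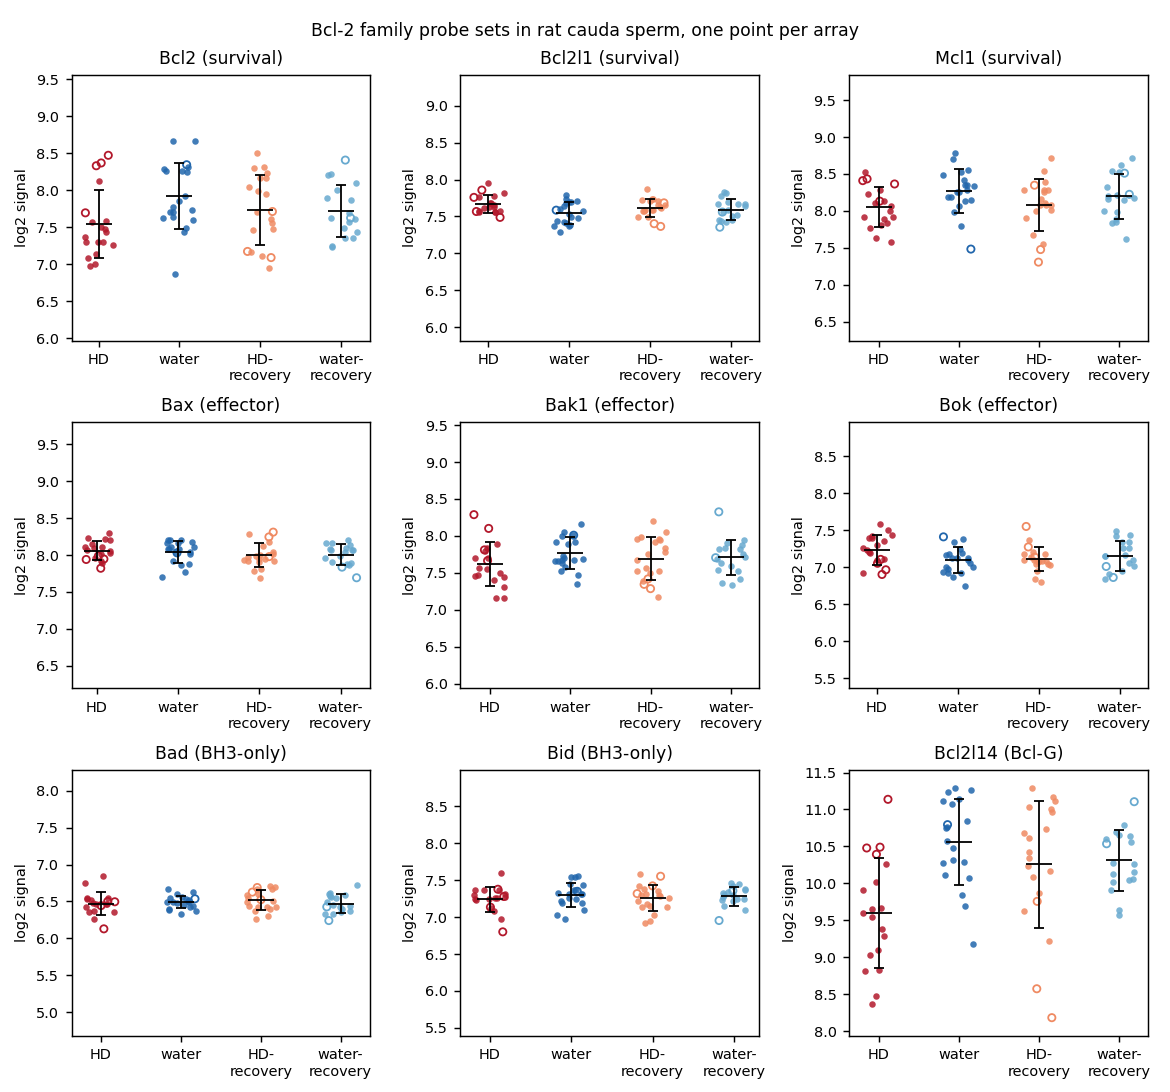
Log2 signal (vertical axis, the same span of 3.6 in each panel) of the 9 members on each array, by group, with 1 point per array, open circles for the 10 outlying arrays, and a bar at the mean with its SD. Bcl2l14 had the widest spread of the 9 panels, and 18 of its 19 HD points lie below the median of the water points.

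The outlying HD arrays were the highest of their group for Bcl2l14. They stood at 10.39, 10.49, 10.48 and 11.14 in replicates 3, 4, 5 and 14, while the other 15 HD arrays ran from 8.36 to 10.26. Without the outlying arrays of both groups the log2 fold change was −1.21 (q = 6.8e-05 by limma, n = 15 and 19). Leaving out single arrays, 1 at a time, Bcl2l14 remained altered in all 39 fits, at −1.04 without HD replicate 14 to −0.89 without HD replicate 12. With the arrays split by replicate number, the log2 fold change was −1.13 in replicates 1 to 10 (q = 0.112) and −0.77 in replicates 11 to 20 (q = 1.00), and neither passed.

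Among the survival members, Bcl2 (probe set 10766953) ran from 6.98 through a median of 7.43 to 8.47 in arrays labelled HD, against 6.86, 7.82 and 8.67 in arrays labelled water. The ranges covered each other almost wholly, though 15 of the 19 HD arrays fell under the water median. For Bcl2 the difference was −0.38 (SE 0.14, unadjusted p = 0.0098, q = 0.310 by limma) and did not pass. Mcl1, a short-lived protein that binds Bak1 and the BH3-only proteins, had a mean log2 signal of 8.06 ± 0.27 in HD sperm and 8.27 ± 0.30 in water sperm, a difference of −0.21 (SE 0.09, q = 0.471). Bcl2l1, which restrains Bax and Bak1, differed in the other direction, with 7.67 ± 0.12 in HD sperm and 7.55 ± 0.14 in water sperm, a difference of 0.12 (SE 0.05, unadjusted p = 0.0103, q = 0.319). For Bcl2l1, 18 of the 19 HD arrays lay above the water median, yet neither Mcl1 nor Bcl2l1 passed.

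The effectors moved little. Bax had a mean log2 signal of 8.05 ± 0.13 in HD sperm and 8.04 ± 0.14 in water sperm, and the 95% interval of its difference, −0.08 to 0.11, leaves room for only small changes of either sign. Bak1 had 7.62 ± 0.29 in HD sperm and 7.77 ± 0.22 in water sperm (difference −0.14, SE 0.08, q = 0.709), and 3 HD arrays lay below the lowest water array. Bok, the effector that can act without Bax and Bak1, had 7.24 ± 0.20 in HD sperm and 7.09 ± 0.18 in water sperm (difference 0.14, SE 0.06, unadjusted p = 0.0241, q = 0.467). None of the 3 effectors passed.

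The BH3-only members differed little. Bad, which binds Bcl-2 and Bcl-xL unless growth factor kinases phosphorylate it, had a mean log2 signal of 6.47 ± 0.15 in HD sperm and 6.49 ± 0.09 in water sperm, with a difference of −0.02 (95% interval −0.11 to 0.07). Both means of Bad lay below the lowest array median of 6.51, so its signal may be background. In that case its narrow interval says little about the transcript. Bid, which caspase-8 cleaves to link death receptors to mitochondria, had 7.24 ± 0.17 in HD sperm and 7.30 ± 0.16 in water sperm, with a difference of −0.06 (95% interval −0.17 to 0.05). Neither passed.

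Over the 9 members the median log2 fold change was −0.06, beside 0.01 over all probe sets, with 6 negative and 3 positive. Before adjustment, 5 of the 9 (Bcl2, Bcl2l1, Mcl1, Bok and Bcl2l14) had p under 0.05, where 8.3% of all probe sets did. Bcl2l1, Mcl1 and Bax each have a dimmer probe set as well, whose log2 fold changes of 0.05, −0.03 and 0.03 did not pass. For Mcl1 the dimmer probe set showed little of the difference of −0.21 seen in the brighter one. When the outlying arrays were left out, 6 members were altered by the same test: Bcl2 (−0.54), Mcl1 (−0.33), Bak1 (−0.22) and Bcl2l14 were lower, and Bok (0.22) and Bcl2l1 (0.13) were higher, in a fit in which 8818 of the 29214 probe sets were altered.

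**Figure D2:**
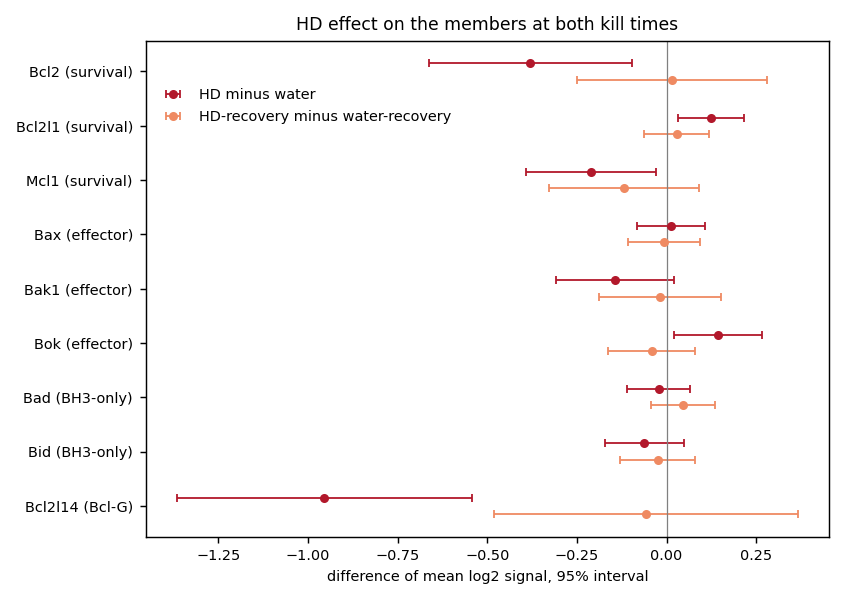
Difference of mean log2 signal (horizontal axis) for each of the 9 members (rows, by role), with HD minus water above and HD-recovery minus water-recovery below it, and bars for the 95% interval of limma. At the end of exposure Bcl2l14 lies at −0.95, apart from the other 8 members, and after recovery all 9 intervals include 0.

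After 3 months of recovery no member differed between the exposed rats and their controls. Bcl2l14 ran from 8.18 through a median of 10.38 to 11.29 in arrays labelled HD-recovery, against 9.58, 10.26 and 11.11 in arrays labelled water-recovery. The HD-recovery arrays reached lower, with 3 of 20 below the lowest water-recovery array, and 2 of those 3 were the outlying replicates 2 and 9, at 8.18 and 8.57. Its mean was 10.26 ± 0.86 in HD-recovery sperm and 10.31 ± 0.41 in water-recovery sperm (SD, n = 20 and 18), a log2 fold change of −0.06 (SE 0.21, 95% interval −0.48 to 0.37, q = 1.00 by limma). Without the outlying arrays this value was 0.26 (q = 0.124, n = 17 and 16), so its sign rested on them.

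The other 8 members had log2 fold changes between −0.12 (Mcl1, SE 0.10) and 0.05 (Bad, SE 0.04) after recovery. Of the 9 members 0 were altered, where 0% of all probe sets were, and 0 of 9 had an unadjusted p under 0.05, where 4.51% of all probe sets did. Bcl2 was nearly level, with 7.73 ± 0.48 in HD-recovery sperm and 7.72 ± 0.36 in water-recovery sperm.

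Whether the HD effect differed between the kill times was tested directly, as the difference at the end of exposure minus that after recovery. For Bcl2l14 it was −0.90 (SE 0.30, 95% interval −1.50 to −0.30), with an unadjusted p of 0.0037 but q = 1.00 by limma over all probe sets, so the loss of the difference was not itself significant. Bcl2 (−0.40, unadjusted p = 0.0479) and Bok (0.18, unadjusted p = 0.0339) were also below 0.05 before adjustment, and both had q = 1.00. No member passed, where 0% of probe sets did, and 3.38% of probe sets had an unadjusted p under 0.05. Without the outlying arrays the value for Bcl2l14 was −1.47 (q = 0.00017) and it passed, as did 6 of the 9 members and 16591 of the 29214 probe sets, so that passing was common in that fit. There Bax passed with an unadjusted p of 0.0841 (q = 0.0448).

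By the labels the level of Bcl2l14 was lowest in HD sperm, with medians of 9.60 in HD, 10.26 in water-recovery, 10.38 in HD-recovery and 10.66 in water. With the labels HD and water turned, the lowest and the highest of these medians would change places. Set directly against each other in 1 fit of all groups, HD-recovery exceeded HD by 0.65 (SE 0.21, unadjusted p = 0.00267, q = 0.180), and water-recovery minus water was −0.24 (SE 0.21, q = 0.887). HD-recovery and water-recovery, neighbours in this order, did not differ beyond their spread, while HD against water-recovery and HD-recovery against water were not tested. HD-recovery against HD altered none of the members, beside 0.154% of all probe sets (0.0274% lower and 0.127% higher), and 2 members, Bcl2l14 and Bok, had an unadjusted p under 0.05, beside 9.55% of probe sets. When outlying arrays were left out, 6 of the 9 members and 16765 of the 29214 probe sets were altered in this comparison, with 1.18 for Bcl2l14, so that the members were close to the share over all probe sets. Water-recovery against water altered none of the members, beside 0% of probe sets, and 0 of 9 had an unadjusted p under 0.05, beside 4.7% of probe sets. The differences of the 9 members ran from −0.24 (Bcl2l14) to 0.06 (Bok).

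The members differed greatly in how much they varied within a group. With group means removed, the SD of Bcl2l14 over the 77 arrays was 0.66, above that of 99.5% of all probe sets, followed by Bcl2 at 0.43 (93.7%) and Mcl1 at 0.30 (80.0%). At the other end, Bad had an SD of 0.12 (3.55%), Bcl2l1 of 0.13 (5.14%) and Bax of 0.14 (9.65%). The transcripts with the widest spread between rats of 1 group were also those with the largest differences after HD exposure.

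This spread was shared. Correlations were computed over the 77 arrays after group means were removed, for all 36 pairs of members, with p-values from 100000 permutations of arrays within groups and Benjamini-Hochberg adjustment over the 36. In all, 18 pairs passed at 0.05, 10 positive and 8 negative. The share of all gene pairs that would pass was not computed, so this count is not read as a trait of the family. Correlation was common on these arrays: of 14505 other genes, 2957 had r above 0.5 with Bcl2l14 and 3933 had r below −0.5. Bcl2l14 and Bcl2 had Pearson's r = 0.80 and Spearman's rho = 0.81, each with the smallest permutation p that can be given, 1e-05 (adjusted p = 4e-05). The coefficient was 0.81 without the 2 arrays farthest from the median and 0.78 without the outlying arrays, and within groups it was 0.88 in HD, 0.82 in water, 0.77 in HD-recovery and 0.73 in water-recovery.

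Bcl2l14, Bcl2, Bak1 and Mcl1 rose and fell together from array to array. The 6 pairs among them had r between 0.52 and 0.80 and rho between 0.51 and 0.81 (adjusted permutation p at most 0.00011), with r of 0.48 to 0.81 without the 2 farthest arrays, 0.47 to 0.78 when the outlying arrays were left out and 0.27 to 0.88 within single groups. This set holds survival members, an effector and Bcl-G, so it does not follow the members' roles. Bok ran the other way, with r = −0.61 to Mcl1, −0.61 to Bcl2, −0.57 to Bcl2l14 and −0.41 to Bak1, each negative within all 4 groups. The adjusted permutation p was at most 0.00083 for these 4 pairs, and without the outlying arrays r was −0.51, −0.58, −0.46 and −0.33. The strongest positive pair outside this set was Bax and Bid, with r = 0.56 and rho = 0.50 (adjusted permutation p = 4e-05 and 7e-05), 0.50 without the 2 farthest arrays, 0.54 without the outlying arrays, and 0.42, 0.54, 0.66 and 0.60 within HD, water, HD-recovery and water-recovery. Bad and Bid (r = 0.34, adjusted permutation p = 0.0067), Bax and Bok (0.29, 0.0234) and Bax and Bad (0.28, 0.0281) passed with smaller values, each positive within all 4 groups, and they were 0.17, 0.17 and 0.16 without the outlying arrays. Bcl2l1 passed with no other member by Pearson's r, and by rank only with Bcl2l14 (rho = −0.26, adjusted permutation p = 0.0465).

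**Figure D3:**
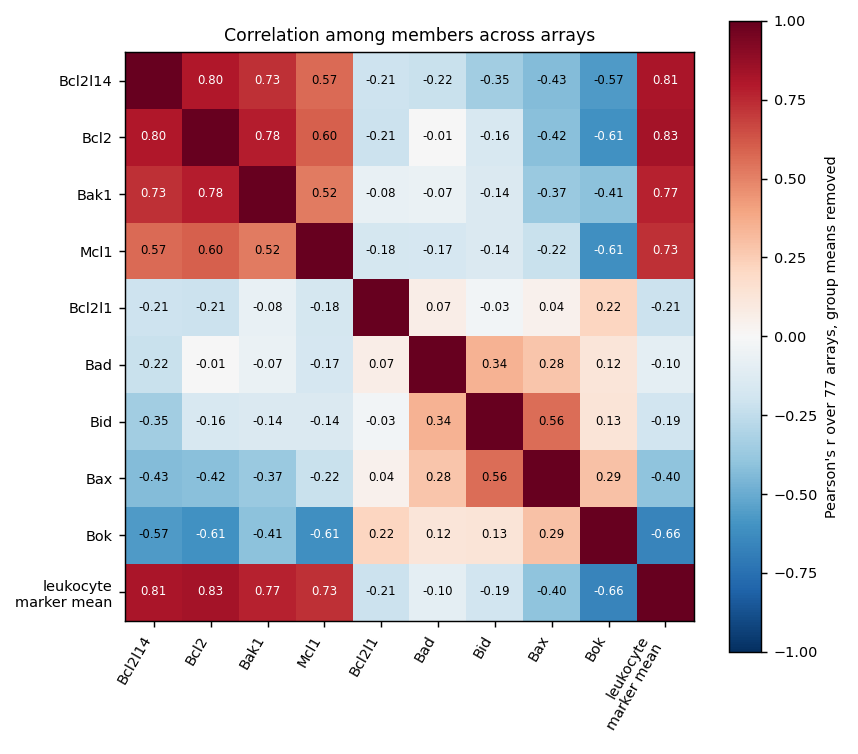
Pearson's r between the members, and with the mean of 15 leukocyte and macrophage markers, over 77 arrays with group means removed (colour, from −1 in blue to 1 in red, value printed in each cell). Bcl2l14, Bcl2, Bak1 and Mcl1 form a positive block with the leukocyte mean (0.52 to 0.83), and Bok is negative to each of its members.

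Markers of other cells moved with the same arrays. Of 15 measured leukocyte and macrophage markers, all 15 had negative log2 fold changes in arrays labelled HD against arrays labelled water and 5 were altered: Cx3cr1, Ccr2, Cd4, Lyz2 and Fcer1g. Over all 29214 probe sets, 12774 had negative log2 fold changes and 0.472% were altered. The mean log2 signal of the 15 markers ran from 7.29 through a median of 7.52 to 8.59 in HD, against 7.50, 8.13 and 8.63 in water. It ran from 7.33 through 8.21 to 9.02 in HD-recovery, against 7.43, 8.21 and 9.10 in water-recovery. The HD arrays were therefore low both in these markers and in Bcl2l14, and in bulk RNA fewer cells of a type and less RNA per cell cannot be told apart.

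Across arrays Bcl2l14 followed the leukocyte mean with r = 0.81 and rho = 0.83, both at the smallest permutation p of 1e-05 (adjusted p = 2e-05 over 9 members). The coefficient was 0.79 without the 2 arrays farthest from the median and 0.77 without the outlying arrays. Within groups it was 0.84 in HD, 0.86 in water, 0.91 in HD-recovery and 0.66 in water-recovery. In all, 6 of the 9 members passed: Bcl2 (r = 0.83), Bcl2l14, Bak1 (0.77) and Mcl1 (0.73) with a positive sign, and Bok (−0.66) and Bax (−0.40) with a negative one, the largest adjusted permutation p being 0.00076. The share of all genes that would pass was not computed, so this count is not read as a trait of the members. On these arrays 1 component held 41.9% of the variance within groups. Its r was 0.82 with Bcl2l14, 0.79 with Bcl2, 0.72 with Bak1, 0.46 with Mcl1, −0.60 with Bok and −0.56 with Bax. By its methods, the study checked sperm purity under bright phase microscopy and by the lack of ribosomal RNA peaks, and reports no somatic cells. The part of leukocyte RNA in the difference of Bcl2l14 was not tested.

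**Figure D4:**
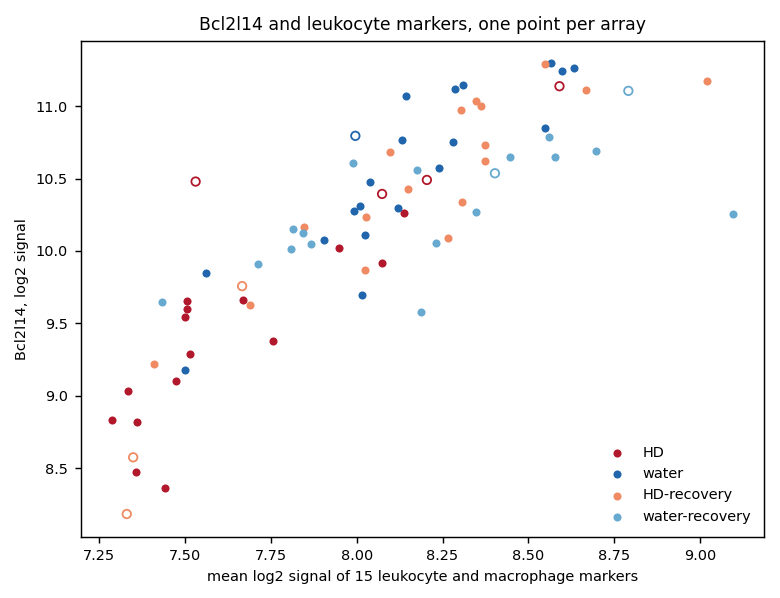
Log2 signal of Bcl2l14 (vertical axis) against the mean log2 signal of 15 leukocyte and macrophage markers (horizontal axis), 1 point per array, coloured by group, with open circles for the outlying arrays. Arrays low in the markers are low in Bcl2l14 in each of the 4 groups, and most HD arrays lie at the lower left.

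Markers of the sperm itself and of the epididymis were also tied to Bcl2l14. Its r was 0.54 with the mean of 14 sperm and spermatid markers (rho 0.51, permutation p = 1e-05 for both, adjusted p = 9e-05 over 9 members) and 0.55 with the mean of 10 epididymal epithelium markers (rho 0.61, permutation p = 2e-05 and 1e-05, adjusted p = 4e-05 and 3e-05), or 0.53 and 0.58 without the 2 farthest arrays and 0.37 and 0.47 without the outlying arrays. Within single groups the first ran from 0.38 to 0.67 and the second from 0.38 to 0.65. The sperm marker mean had medians of 10.37 in HD and 10.26 in water. Of the 14 markers, 9 had positive and 5 negative log2 fold changes in HD against water (median 0.29). An unadjusted p under 0.05 was seen for 10 of the 14, in both directions, beside 8.3% of all probe sets. Akap4, a scaffold of the sperm tail, averaged 10.29 ± 0.78 in HD sperm and 9.51 ± 0.81 in water sperm, and Tnp1, a transition protein of spermatids, 10.73 ± 0.84 in HD sperm and 10.04 ± 0.90 in water sperm, and neither passed (q = 0.162 and 0.340 by limma). Odf1, an outer dense fibre protein, was the 1 sperm marker that passed, and it was lower (−0.22, q = 0.0445). No epididymal marker of 10 and no Sertoli cell marker of 7 was altered, while 1 of 5 erythroid markers (Ahsp) and 1 of 8 fibroblast markers (Dcn) were lower, beside 0.455% of all probe sets. Their part in the difference was not tested either.

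The genes whose pattern over the 77 arrays was most like that of Bcl2l14, among 14505 other genes, were Klhl10, Tpgs2, Mfap3l and Dnajb4 (each with r = 0.97) and Sgms1 (r = 0.96). Klhl10 encodes an adaptor of a ubiquitin ligase of mouse spermatids, Tpgs2 a subunit of the tubulin polyglutamylase, Dnajb4 a chaperone of the Hsp40 family and Sgms1 a sphingomyelin synthase. All 5 had negative log2 fold changes in HD sperm, from −0.98 (Mfap3l, q = 0.0164) and −0.86 (Dnajb4, q = 0.0349) to −0.61 (Klhl10, q = 0.240), −0.61 (Tpgs2, q = 0.100) and −0.51 (Sgms1, q = 0.274). The same 5 were the most alike when the outlying arrays were left out. High values of r were common on these arrays, with 2957 genes above 0.5 and 3933 below −0.5, since 1 component held 41.9% of the variance that remained after group means were removed. The r of Bcl2l14 with that component was 0.82.

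The rest of the pathway was mostly level by this test, in which 0.472% of all probe sets were altered. None of 15 measured further family genes was altered (median log2 fold change −0.01), with the smallest p for Bcl2l13, a mitophagy receptor (−0.13, q = 0.520), Bcl2l15 (−0.18, q = 0.573) and Bnip3l, another mitophagy receptor (−0.23, q = 0.662). The BH3-only genes Bcl2l11 (Bim), Bbc3 (Puma) and Pmaip1 (Noxa) had log2 fold changes of −0.07, −0.01 and −0.04. None of 17 measured genes downstream was altered either (median −0.01): Apaf1 and Casp9, which build and fire the apoptosome, stood at −0.01 and −0.02, and Cycs, somatic cytochrome c, at −0.03. The smallest p among these was that of Birc2, an inhibitor of apoptosis (−0.21, SE 0.06, q = 0.135), followed by Htra2, a mitochondrial protease (−0.14, q = 0.321), and Vdac3, a channel of the outer mitochondrial membrane (0.32, q = 0.635).

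Among 13 measured kinases, partners and survival genes linked to Bad and Bcl-2, 2 were lower and none was higher (median −0.04), beside 0.455% and 0.0171% of all probe sets. Pim1, a kinase that phosphorylates Bad and so blocks it, stood at −0.96 by the labels (log2 fold change, SE 0.21, q = 0.0180 by limma), and 17 of 19 HD arrays fell under the water median. Bfar, an endoplasmic reticulum protein that binds Bcl-2, had −0.83 (SE 0.20, q = 0.0356), with 18 of 19. Bag1, a co-chaperone that binds Bcl-2, stood just outside the threshold at −0.81 (SE 0.20, q = 0.0510). For Pim1, Bfar and Bag1 too the study's array values go in the opposite direction. It picked them from these arrays, so their changes lend the list no independent support. By its quantitative PCR of other rats after 3 months of HD, Bfar was lower and Pim1 and Bag1 were higher, none significantly. After recovery none of the 45 measured genes of these 3 lists was altered.

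**Figure D5:**
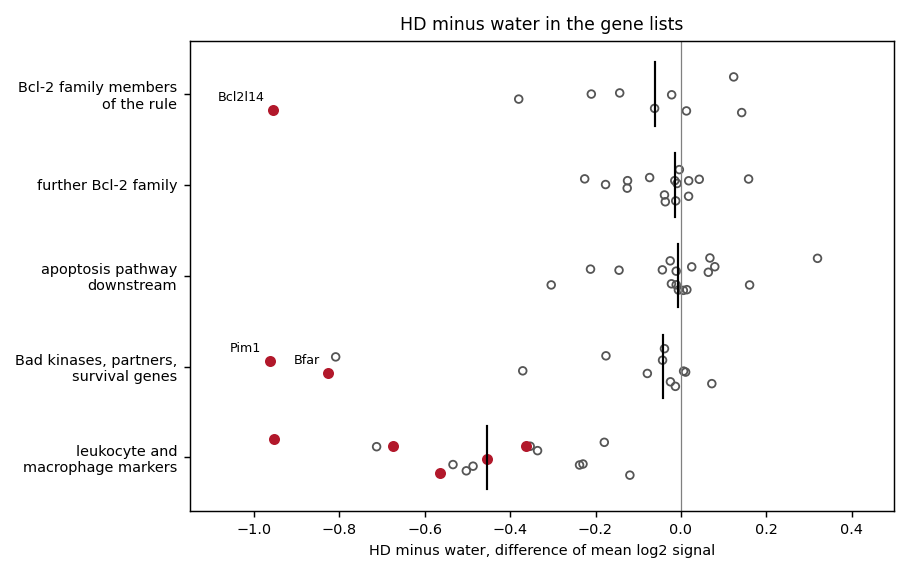
Difference of mean log2 signal, HD minus water (horizontal axis), for the genes of 5 lists (rows), with 1 point per gene, filled red where altered at q under 0.05, and a black line at the list's median. Bcl2l14, Pim1 and Bfar are the altered genes of the family and pathway lists, and all 15 leukocyte and macrophage markers lie below 0.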

How the data were processed

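The values analysed are the log2 signals deposited by the authors, 1 per probe set and array, with none missing. The scale was taken to be log2 from its range of 2.51 to 14.63. Per the methods, probe intensities were normalized by published procedures; how background was corrected and probes summarized is not given in the sources used here, and limma is named in the submitters' notes. Gene names came from the platform annotation (15310 probe sets with 1 symbol, 323 with several, 13581 with none), and all 29214 were tested. As in the methods, limma (version 3.58.1 in R 4.3.3) compared each exposed group with its control, and p-values became q-values by Storey's method, written out after its smoother and tested on simulated data. The simulated probe sets varied independently, so that test does not show how q behaves where probe sets are correlated, as they are here. Correlations used numpy 2.4.6. The number of arrays limits the precision. Array weights, other scalings and sets of arrays were tried as alternatives. The 10 members are all accounted for, list genes are named if altered or among the 3 smallest p (a few others, such as Apaf1, were chosen after their values were seen), and 5 genes were named for likeness to Bcl2l14. The members and gene lists were chosen with earlier results of these data known. The labels call each array a biological replicate and give no batch.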

Additional observations from a re-analysis of the deposited data

How the results depend on the processing

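Bcl2l14 was altered in HD against water under each setting that used arrays of all replicate numbers. No altered member changed direction under any setting. Members altered in HD against water numbered 1 in the values above, 5 with array weights, 6 without the outlying arrays, 2 with the first principal component added to the model, 0 in replicates 1 to 10 and 0 in replicates 11 to 20. Altered probe sets numbered 138, and 63 with array medians centred, 352 after quantile normalization, 5178 with array weights, 8818 without the outlying arrays, 1462 with the component, 221 with all 4 groups in 1 fit, 215 among probe sets above the median level, 40 in replicates 1 to 10 and 0 in replicates 11 to 20. With each array left out in turn they ranged from 76 (without water replicate 10) to 376 (without HD replicate 14), and the members altered stayed at 1. For recovery, altered probe sets numbered 527 with weights, 3834 without the outlying arrays and 47 with the component, against 0, and no member was altered under any setting. For the difference between kill times, members and probe sets numbered 4 and 9833 with weights, 6 and 16591 without the outlying arrays, and 1 and 356 with the component. For HD-recovery against HD they were 5 and 13211 with weights, 6 and 16765 without the outlying arrays, 1 and 1383 with the component, and probe sets numbered 16 with medians centred and 120 after quantile normalization. Water-recovery against water altered 315 probe sets with the component. The cause of these shifts was not tested. Where most probe sets pass, q can fall below p.

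Whether equal replicate numbers share a factor is not given by the labels and was not tested. Of same-numbered arrays, 8 of 19 of HD and water and 8 of 18 of HD-recovery and water-recovery correlated above 0.1. Those that correlated best with their own number were 2 and 4. The median r of same-numbered arrays was 0.03 for HD and water, beside −0.004 for arrays of other numbers. For HD-recovery and water-recovery these medians were 0.04 and −0.015. How many arrays of other numbers correlated above 0.1 was not counted. A replicate block lowered the SE of Bcl2 in HD against water from 0.14 to 0.095, and Bcl2 still did not pass (q = 0.0642 by limma). With a replicate block Bcl2l14 had −0.97 (q = 0.0193 by limma), 1 member and 156 probe sets were altered in HD against water, and 0 and 0 after recovery. Signal over background is not known, so a level near the array median may be background.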
